A study of Mus musculus with 6 samples.

Results

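The genes described here are 9 components of transforming growth factor beta (TGF-beta) signalling, taken by symbol from the deposited expression table: the ligands Tgfb1, Tgfb2 and Tgfb3, the activin subunit Inhba, the receptors Tgfbr1, Tgfbr2 and Tgfbr3, and the SMAD proteins Smad3 and Smad7. All 9 were among the 21436 genes with a value. TGF-beta ligands are secreted in a latent form and, once released, bind the type II receptor, which recruits and phosphorylates the type I receptor. The type I receptor then phosphorylates SMAD2 and SMAD3, which enter the nucleus with SMAD4 and regulate transcription, and SMAD7 is induced as a feedback inhibitor. Activins, dimers of inhibin beta subunits, use their own receptors and the same SMAD2 and SMAD3. In preadipocytes TGF-beta and activin A are known to restrain adipocyte differentiation, and in fibroblasts TGF-beta induces matrix and contractile genes.

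The data are RNA sequencing values of mouse 3T3-L1 cells, an established embryonic fibroblast line of clonal origin, labelled wild type, that can be induced to form adipocytes. In the co-culture group (3 libraries) human umbilical cord mesenchymal stem cells occupied the upper chamber of a Transwell whose membrane had pores of 0.4 µm. In the alone group (3 libraries) no cells were in the upper chamber. Both groups were kept for 72 h in high-glucose DMEM with 10% fetal bovine serum and an adipogenic mixture. It held insulin (10 mg/L), the phosphodiesterase inhibitor IBMX (0.5 mmol/L), dexamethasone (1 µmol/L) and the PPAR-gamma agonist rosiglitazone (2 µmol/L). The comparison asks how human cells on the other side of a membrane alter expression in the mouse cells. The deposited unit is FPKM, in which fragments are scaled to the length of the gene and the size of the library.

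Library totals recovered from the values were 29603755 to 37612585 reads in co-culture and 36119750 to 38357563 reads alone. Pearson correlations of log2(FPKM + 1) across the 10055 tested genes, which are not independent replicates, were 0.9974 to 0.9982 within groups and 0.9914 to 0.9928 between them. Alone replicate 1 stood apart within its group, with a mean chi-square per gene of 11.0 and 14.3 against the other alone libraries, while pairs within a group otherwise gave 3.7 to 5.45. Reads of the 13 mitochondrial protein genes made up 4.82% to 5.0% in co-culture and 4.4% to 4.62% alone, and the part of this difference in the results below was not tested. All 8 fibroblast markers had a mean of at least 1 FPKM, with a summed level of 3750 to 3860 FPKM in co-culture and 3340 to 3570 FPKM alone. They did not all move together. Pdgfra, Pdgfrb, Vim, Dlk1 and S100a4 were higher in co-culture and Thy1 was lower (limma adjusted p below 0.05), while Col1a1 and Col1a2 did not pass. Of the 9 adipocyte markers with a value, Fabp4 and Lpl reached a mean of 1 FPKM (the list summed to 242 to 253 FPKM in co-culture and 271 to 291 FPKM alone). Lpl was lower in co-culture, at 190.5 ± 6.89 FPKM against 226.0 ± 8.34 FPKM alone (SD, n = 3 each). Fabp4 was at 58.19 ± 0.74 FPKM in co-culture and 53.41 ± 3.04 FPKM alone (SD, n = 3 each) and did not pass (limma adjusted p = 0.0508). For Fabp4 all co-culture libraries lay above all alone libraries, as for 21.3% of tested genes. Adipoq, the adiponectin gene, had 0 reads over the co-culture libraries and 1 over the alone libraries. The adipocyte marker Plin1 had 12 reads in each group, so neither group showed the defining markers of mature adipocytes. Markers of macrophages summed to 3.83 to 4.44 FPKM in co-culture and 4.27 to 5.96 FPKM alone, of which Cd68 gave 3.549 to 3.923 FPKM in co-culture and 3.175 to 4.08 FPKM alone, while Ptprc and Adgre1 were near 0. Lyz2, below the filter on low values, was at 0.2237 to 0.5323 FPKM in co-culture and 0.8231 to 1.875 FPKM alone, and its part in the results was not tested. Endothelial and epithelial marker lists each summed to at most 0.136 FPKM in co-culture and 0.0915 FPKM alone, and skeletal muscle markers to 1.17 to 1.53 FPKM in co-culture and 0.906 to 1.39 FPKM alone. In whole cultures, fewer cells of a type and less RNA per cell cannot be told apart. Nothing in the labels says that the replicates were grown separately, so the error behind each p-value is that of these libraries and may be technical in origin.

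Of the 9 genes, 5 fell in co-culture (Inhba, Tgfb1, Tgfb2, Tgfbr1 and Smad7), 1 rose (Tgfbr2) and 3 were not called (Tgfb3, Tgfbr3 and Smad3). A gene was called when its Benjamini-Hochberg adjusted p from limma was below 0.05, over the 10055 genes whose mean over the libraries reached 1 FPKM, a filter that all 9 passed. Among all tested genes 31.8% were called, 17.9% lower and 13.9% higher in co-culture. The median log2 change, on the log2(FPKM + 1) scale as co-culture minus alone, was −0.20 over the 9 genes and −0.0037 over all tested genes. All 3 co-culture libraries lay below all 3 alone libraries for 6 of the 9 genes, an arrangement that 24.8% of tested genes shared. They lay above for 1, as for 21.3% of tested genes, and groups did not overlap in either direction for 46.1% of tested genes.

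**Figure D1:**
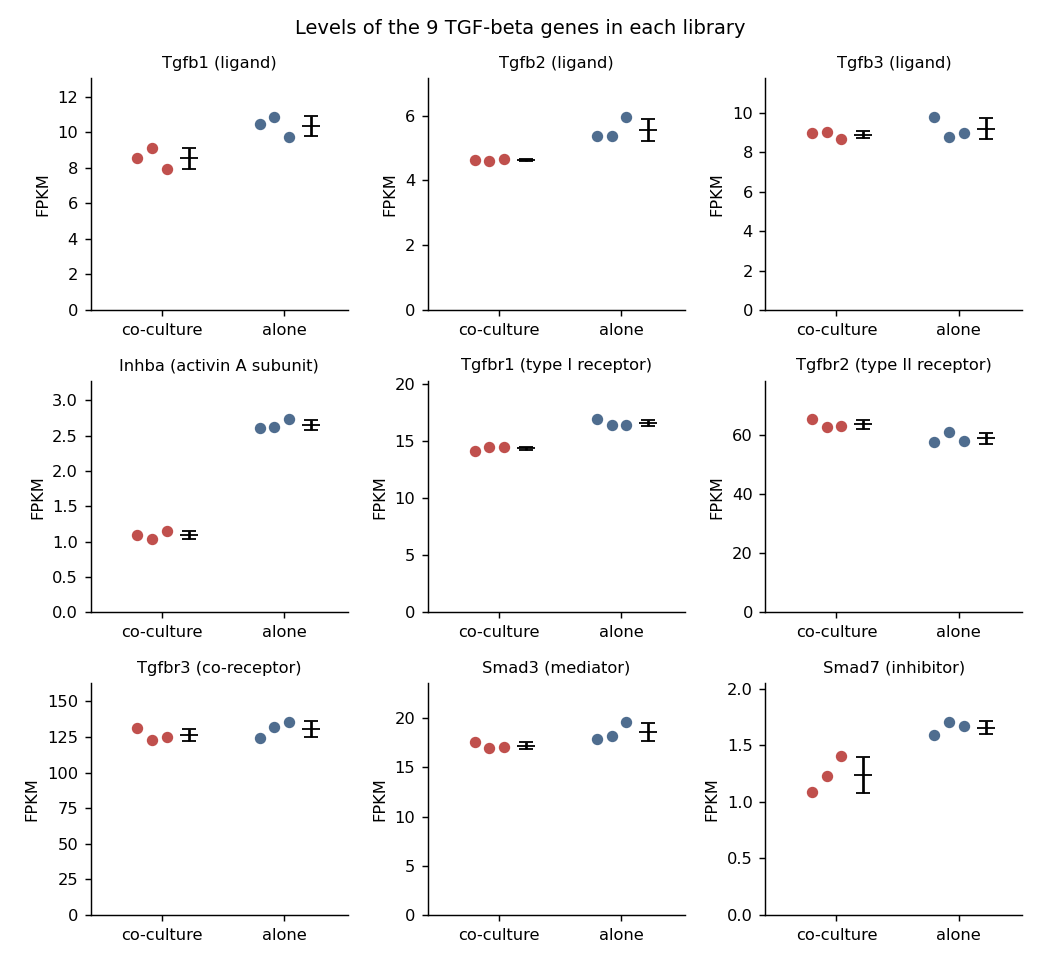
FPKM of the 9 TGF-beta genes in each library (points; co-culture left, alone right), with mean ± SD beside them (n = 3 each). Every axis starts at 0. Relative to its level Inhba differs most between the groups, and Tgfb3 and Tgfbr3 overlap between them.

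Tgfbr3 was the highest, at 126.3 ± 4.37 FPKM in co-culture and 130.6 ± 5.65 FPKM alone (SD, n = 3 each), followed in both groups by Tgfbr2, Smad3 and Tgfbr1. Among all tested genes, ranked by mean level, Tgfbr3 stood at the 95.9th percentile and Tgfbr2 at the 90.6th, and Tgfbr1 stood at the 65.4th. The ligands Tgfb1 and Tgfb3 came next and had overlapping ranges in each group, and Tgfb2 lay below both. In co-culture Smad7 and Inhba were lowest with overlapping ranges, while in the alone group Inhba lay above Smad7. Smad7 stood at the 5.31st percentile of tested genes and Inhba at the 9.58th. FPKM depend on the length assigned to a gene, and the deposited values of Inhba correspond to a length of 14541 bp, against 6390 bp of exons in GENCODE M21, so its level relative to other genes rests on that gene model. The length in the values also differed from the GENCODE M21 exons for Tgfb1 (2197 against 5042 bp), Tgfb2 (8523 against 5791 bp) and Tgfbr2 (4788 against 8187 bp). These lengths bear on the order of levels and on which genes reach 1 FPKM. They leave the FPKM ratio of a gene between groups as it is, but alter how far the added 1 shrinks its log2(FPKM + 1) change.

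Inhba, which encodes the beta A subunit that dimerises to form activin A, showed the largest difference of the 9. It was at 1.099, 1.037 and 1.153 FPKM in co-culture replicates 1 to 3, against 2.607, 2.62 and 2.729 FPKM in alone replicates 1 to 3. Every co-culture library was under every alone library, and the gap between the groups was many times the spread within either. The means of 1.096 ± 0.0584 FPKM in co-culture and 2.652 ± 0.0668 FPKM alone (SD, n = 3 each) make a 2.42-fold lower level in co-culture. These values rest on 1666 reads in co-culture and 4336 alone. The log2 change was −0.80 (SE 0.0587, adjusted p = 6.48e-06, limma), and 45 of the 10055 tested genes had a change as low or lower. Because the scale adds 1 to low values, the change was −1.28 when limma-voom was run on the recovered reads. Inhba (Entrez 16323) lies on chromosome 13 from 16004256 to 16031609 (RefSeq, GRCm38.p6, the assembly of mm10). The antisense gene Gm48444 and the pseudogene B230303A05Rik overlap it on the other strand. Strand use in counting is not given in the sources used here, and reads of the overlapping genes cannot be told apart.

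Tgfb1, the most studied ligand of the family, was lower in co-culture by a smaller margin. Its levels were 8.549, 9.112 and 7.926 FPKM in co-culture replicates 1 to 3, against 10.44, 10.86 and 9.754 FPKM in alone replicates 1 to 3. The groups did not overlap, and the highest co-culture library lay close under the lowest alone library. Means were 8.529 ± 0.593 FPKM in co-culture and 10.35 ± 0.559 FPKM alone (SD, n = 3 each; 1.21-fold lower), with a log2 change of −0.25 (SE 0.058, adjusted p = 0.0078, limma). The call held without each library in turn (limma adjusted p 0.0067 to 0.0344). It was not made when genes of any level were tested together (limma adjusted p = 0.0542). Tgfb1 lies on chromosome 7 from 25687002 to 25705077 and had 1959 reads in co-culture and 2554 alone.

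Tgfb2, a ligand that depends on the co-receptor betaglycan for efficient receptor binding, fell by a similar amount. It measured 4.617, 4.611 and 4.668 FPKM in co-culture, against 5.367, 5.37 and 5.956 FPKM alone (replicates 1 to 3 in each). The co-culture libraries were nearly identical, and the alone libraries were all higher, with replicate 3 above the other two. Means were 4.632 ± 0.0314 FPKM in co-culture and 5.564 ± 0.339 FPKM alone (SD, n = 3 each; 1.201-fold lower; log2 change −0.22, SE 0.0538, adjusted p = 0.011, limma). Tgfb2 lies on chromosome 1 from 186622787 to 186709697 and is overlapped on the other strand by Gm29491.

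Tgfb3, the third ligand of this subfamily, was not called. It was at 8.951, 9.009 and 8.682 FPKM in co-culture replicates 1 to 3, against 9.782, 8.792 and 8.988 FPKM in alone replicates 1 to 3, and the ranges overlapped. The log2 change of −0.043 had a 95% interval of −0.15 to 0.067 (adjusted p = 0.54, limma). The gene lies on chromosome 12 from 86056743 to 86079041 and is overlapped by Ttll5, a protein-coding gene on the other strand. The 3 ligand transcripts together summed to 22.12, 22.73 and 21.28 FPKM in co-culture replicates 1 to 3, against 25.59, 25.02 and 24.7 FPKM in alone replicates 1 to 3. Of that sum Tgfb3 made up 39.6% to 40.8% in co-culture and 35.1% to 38.2% alone, while the share of Tgfb1 was 37.3% to 40.1% in co-culture and 39.5% to 43.4% alone. The share of Tgfb2 overlapped between the groups, at 20.3% to 21.9% in co-culture and 21.0% to 24.1% alone. The sum and the shares rest on the gene lengths used in the deposited values, which for Tgfb1 and Tgfb2 differed from the GENCODE M21 exons.

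Upstream sequences are shown for the 3 ligand genes that fell, to set their start regions side by side. Each is the 250 bases before the start site that RefSeq lists on GRCm38.p6, read 5′ to 3′ on the gene's strand. The windows are chr13:16011601-16011850 (plus strand) for Inhba, chr7:25686752-25687001 (plus strand) for Tgfb1 and chr1:186705990-186706239 (minus strand) for Tgfb2. For Inhba and Tgfb2 the RefSeq gene reaches beyond this start. GENCODE M21 has 0 exons of the gene itself in any of them, and an exon of the antisense gene Gm29491 in that of Tgfb2. Capitals mark matches, on either strand, to the TATA box TATAAA, the CCAAT box CCAAT, the GC box GGGCGG or the core of the SMAD-binding CAGA box, CAGACA.
Inhba: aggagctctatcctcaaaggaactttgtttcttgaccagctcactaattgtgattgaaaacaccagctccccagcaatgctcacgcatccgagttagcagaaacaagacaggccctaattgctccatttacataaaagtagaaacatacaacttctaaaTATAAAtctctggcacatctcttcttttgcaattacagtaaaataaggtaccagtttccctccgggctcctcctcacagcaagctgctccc
Tgfb1: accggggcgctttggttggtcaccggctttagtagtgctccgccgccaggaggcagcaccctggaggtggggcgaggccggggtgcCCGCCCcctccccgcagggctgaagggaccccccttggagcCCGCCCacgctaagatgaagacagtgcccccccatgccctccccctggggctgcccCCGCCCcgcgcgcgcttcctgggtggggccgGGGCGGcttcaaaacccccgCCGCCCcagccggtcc
Tgfb2: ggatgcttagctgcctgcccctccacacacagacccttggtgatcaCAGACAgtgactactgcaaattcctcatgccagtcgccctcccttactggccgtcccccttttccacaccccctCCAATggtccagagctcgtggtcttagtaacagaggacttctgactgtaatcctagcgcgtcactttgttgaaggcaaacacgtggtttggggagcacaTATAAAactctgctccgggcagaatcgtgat

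The 3 windows differed in composition. G and C made up 43.2% of the Inhba window, 75.2% of the Tgfb1 window and 53.6% of the Tgfb2 window, where the median over 32841 RefSeq windows of the same length was 52.4%. Tgfb1 had 5 GC boxes and no TATA box. Tgfb2 had a TATA box at −31 from the start, a CCAAT box at −130 and a CAGA core at −204, and Inhba had a TATA box sequence at −91. TATAAA occurs in 12.4% of all windows, CCAAT in 33.9%, GGGCGG in 32.7% and CAGACA in 17.1%. Windows were available for 6 of the 9 genes (not for Tgfb3, Tgfbr3 and Smad7), with 2 windows for Tgfbr1. Of these 6 genes 2 held CAGACA, which for Tgfbr1 lay only in the window that starts at 47385966. These counts are per gene, whereas the percentages are per window. None of the 6 held the AP-1 site TGANTCA (6.75% of all windows), the cyclic AMP response element TGACGTCA (1.55%) or the SMAD palindrome GTCTAGAC (0.167%), which says only that these letters are not in the windows.

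Among the receptors, the type I and type II receptor transcripts moved in opposite directions. Tgfbr1, the type I receptor kinase that phosphorylates SMAD2 and SMAD3, was at 14.18, 14.47 and 14.45 FPKM in co-culture replicates 1 to 3, against 16.9, 16.45 and 16.43 FPKM in alone replicates 1 to 3. The groups lay well apart relative to their spread. Means were 14.37 ± 0.164 FPKM in co-culture and 16.59 ± 0.269 FPKM alone (SD, n = 3 each; 1.16-fold lower), with a log2 change of −0.20 (SE 0.0383, adjusted p = 0.0034, limma). Tgfbr1 lies on chromosome 4 from 47353222 to 47414926, and its call was kept under all 16 alternative settings, with limma adjusted p of 0.000686 to 0.0167.

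Tgfbr2, the type II receptor kinase that binds the ligand first, was at 65.24, 62.62 and 62.97 FPKM in co-culture replicates 1 to 3, against 57.7, 61.0 and 57.83 FPKM in alone replicates 1 to 3. Co-culture libraries were all higher, with alone replicate 2 closest to them. Means were 63.61 ± 1.42 FPKM in co-culture and 58.84 ± 1.87 FPKM alone (SD, n = 3 each; 1.081-fold higher; log2 change 0.11, SE 0.0367, adjusted p = 0.0409, limma). This call was close to the threshold and was made under 5 of 16 alternatives. It was lost without any library but alone replicate 2 (limma adjusted p of 0.0621 to 0.15 in those 5 fits, and 0.0326 without alone replicate 2), with the replicate number as a block (0.0732), with median-ratio scaling (0.0578) and with TPM scaling (0.0834). Within each library the ratio of Tgfbr2 to Tgfbr1 FPKM was 4.6, 4.33 and 4.36 in co-culture replicates 1 to 3, against 3.41, 3.71 and 3.52 in alone replicates 1 to 3, and the ratios did not overlap. The size of this ratio rests on the gene lengths used in the deposited values. Tgfbr2 lies on chromosome 9 from 116087695 to 116175363.

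Tgfbr3, which encodes betaglycan, the co-receptor that presents ligand to the type II receptor, was not called. Its levels were 131.2, 122.8 and 124.8 FPKM in co-culture replicates 1 to 3, against 124.5, 131.9 and 135.6 FPKM in alone replicates 1 to 3, with overlapping ranges. The log2 change of −0.048 had a 95% interval of −0.14 to 0.044 (adjusted p = 0.41, limma), on 80176 reads in co-culture and 89426 alone. Tgfbr3 lies on chromosome 5 from 107106567 to 107289629. It is overlapped by Gm43422, Gm43423 and Gm42900 on the same strand and by the pseudogene Gm8145 on the other.

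**Figure D2:**
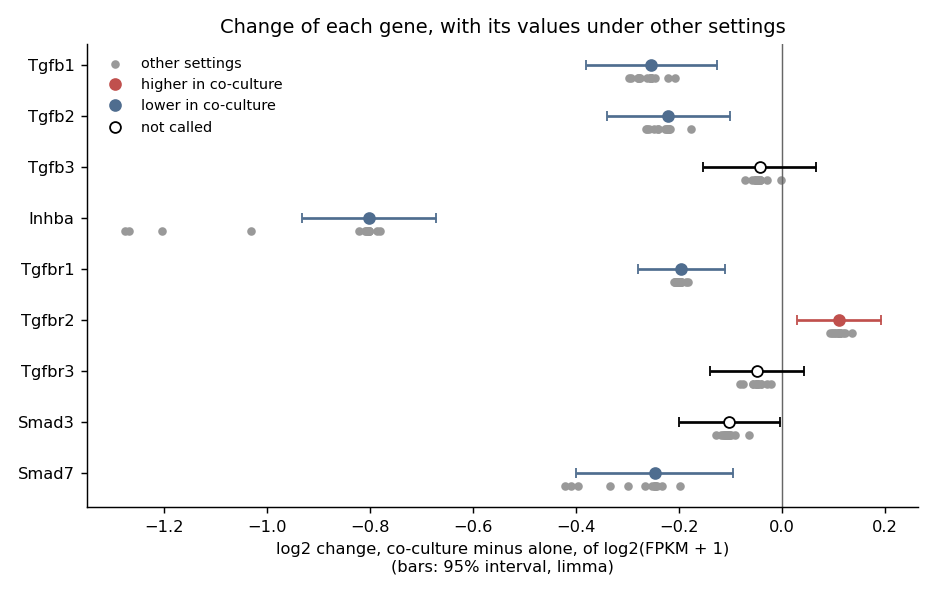
Change of each gene (co-culture minus alone, on the log2(FPKM + 1) scale), with the 95% interval from limma; grey points below it are the values under the alternative settings. Inhba lies at −0.80 and reaches −1.28 on recovered reads, and Tgfbr2 alone lies above 0.

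Smad7, the inhibitory SMAD that blocks the type I receptor and is itself induced by TGF-beta, was lower in co-culture. It was at 1.087, 1.233 and 1.405 FPKM in co-culture replicates 1 to 3, against 1.591, 1.708 and 1.673 FPKM in alone replicates 1 to 3. All co-culture libraries were lower, and they varied more among themselves than the alone libraries did. Means were 1.242 ± 0.159 FPKM in co-culture and 1.657 ± 0.0601 FPKM alone (SD, n = 3 each; 1.33-fold lower, 582 and 827 reads), with a log2 change of −0.25 (SE 0.0691, adjusted p = 0.0203, limma). The change was −0.40 and −0.42 with pseudocounts of 0.1 and 0.01, and −0.41 with limma-voom on recovered reads. The limma call was lost without co-culture replicate 1 (adjusted p = 0.0779), co-culture replicate 2 (0.0505), alone replicate 2 (0.0623) or alone replicate 3 (0.0545). It was also lost when genes of any level were tested (0.08). Smad7 lies on chromosome 18 from 75367365 to 75395935.

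Smad3, the receptor-activated SMAD that carries the signal to the nucleus, did not pass the test. Its levels were 17.61, 16.94 and 17.11 FPKM in co-culture replicates 1 to 3, against 17.87, 18.21 and 19.62 FPKM in alone replicates 1 to 3. The groups did not overlap, but co-culture replicate 1 and alone replicate 1 lay side by side. The log2 change was −0.10 (95% interval −0.20 to −0.004, unadjusted p = 0.0432, adjusted p = 0.106, limma), and no alternative setting called it. Smad3 lies on chromosome 9 from 63646766 to 63757994.

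**Figure D3:**
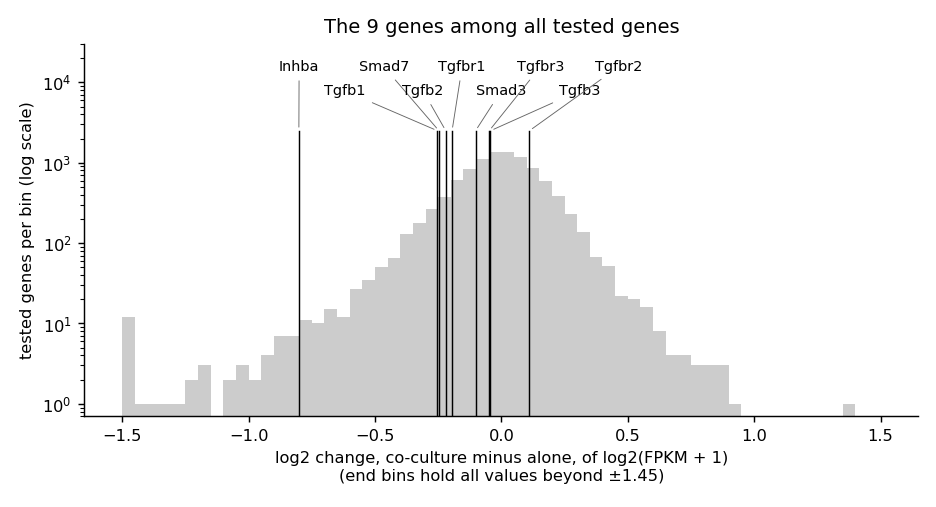
Number of tested genes (log scale) by log2 change, co-culture minus alone, in bins of the log2(FPKM + 1) scale, with a line for each of the 9 genes. Inhba at −0.80 lies in the lower tail and the other 8, from −0.25 to 0.11, lie within the bulk of the distribution.

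By size of change, Inhba ranked 53rd of the 10055 tested genes, whereas the other called genes ranked from 1389th (Tgfb1) to 4644th (Tgfbr2). Genes with the most similar profile over the 6 libraries were found by the root mean square difference of log2(FPKM + 1), each gene centred on its own mean. For Inhba these were Thbd, which encodes the anticoagulant receptor thrombomodulin (difference 0.0178 log2 units, 78.0 ± 2.85 FPKM in co-culture and 136.6 ± 4.83 FPKM alone), and Slc25a25, a mitochondrial carrier gene (0.0358). The nearest to Tgfb1 were Slc25a39 and Ntmt1 (0.011 and 0.0206), to Tgfb2 Rabep1 and Larp4 (0.0183 and 0.0185), and to Tgfbr1 Heatr3 and Zfp146 (0.0092 and 0.0116). The nearest to Smad7 was Edil3 (0.0148), and those nearest to Tgfbr2 were Sec16b and Abtb1 (0.0104 and 0.0122). With many genes differing between 2 groups, close profiles over 6 libraries are a description only.

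Of 11 other genes of activin signalling 10 had a value and 5 could be tested, of which 1 rose and 1 fell, close to the shares over all tested genes (13.9% higher and 17.9% lower). Inha, the inhibin alpha subunit, which pairs with beta subunits to form inhibins that antagonise activin, was at 3.585, 3.468 and 3.467 FPKM in co-culture replicates 1 to 3, against 3.015, 2.246 and 2.24 FPKM in alone replicates 1 to 3 (1.40-fold higher, log2 change 0.37, SE 0.0819, adjusted p = 0.00637, limma; 0.0671 when genes of any level were tested). All co-culture libraries were higher, and alone replicate 1 was the highest of its group. Acvr1b, the activin type I receptor, fell to 8.823 ± 0.413 FPKM in co-culture, against 11.02 ± 0.432 FPKM alone (SD, n = 3 each; limma adjusted p = 0.00157). Fst, which encodes the activin-binding antagonist follistatin, was abundant at 176.1 ± 4.26 FPKM in co-culture and 169.0 ± 3.36 FPKM alone, and was not called (limma adjusted p = 0.218). Acvr2a, an activin type II receptor, had 13.09 ± 0.311 FPKM in co-culture and 13.81 ± 1.22 FPKM alone and was not called (limma adjusted p = 0.405), but it was called lower without alone replicate 1 (adjusted p = 0.0351), which made the lower genes 2. Inhbb, the beta B subunit, chosen after its values were seen, was below the filter, at 0.5911 ± 0.0932 FPKM in co-culture and 0.3084 ± 0.0426 FPKM alone (262 and 148 reads; limma adjusted p = 0.0272 when genes of any level were tested).

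Ratios within a library do not depend on how libraries were scaled. The ratio of Inha to Inhba FPKM was 3.26, 3.35 and 3.01 in co-culture replicates 1 to 3, against 1.16, 0.857 and 0.821 in alone replicates 1 to 3. Inha thus exceeded Inhba in every co-culture library and in alone replicate 1, and was under it in the other alone libraries, with the gene lengths used in the deposited values. Fst exceeded Inhba by a ratio of 149 to 174 in co-culture and 60.7 to 66.1 alone, with the same gene lengths. Neither ratio is separate from the 2.42-fold lower level of Inhba. Fst was not called, so its ratio mostly repeats the fall of Inhba. Inha was 1.40-fold higher, a smaller change than that of Inhba.

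**Figure D4:**
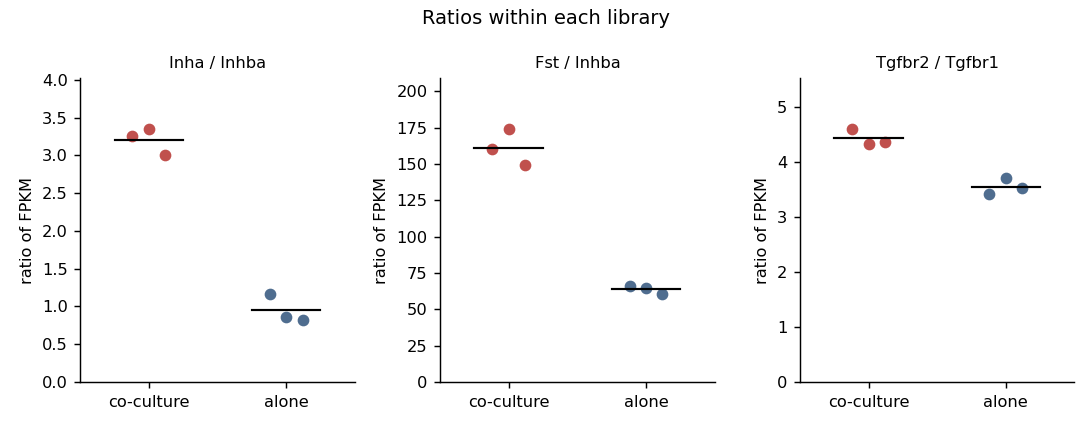
Ratios of FPKM within each library (points; co-culture left, alone right; lines are means of 3) for Inha over Inhba, Fst over Inhba and Tgfbr2 over Tgfbr1. The groups are apart in all 3 panels, with Inha over Inhba at 3.01 to 3.35 in co-culture and 0.821 to 1.16 alone. The gap in Fst over Inhba mostly repeats the fall of Inhba.

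Of 16 genes listed around the latency and activation of TGF-beta 10 were tested. Not all of the 16 hold TGF-beta latent or release it. Of those tested 1 rose and 1 fell, no larger a share than over all tested genes (13.9% higher and 17.9% lower). Dcn, which encodes decorin, a proteoglycan that binds TGF-beta, fell to 100.8 ± 5.11 FPKM in co-culture, against 124.5 ± 8.23 FPKM alone (SD, n = 3 each; log2 change −0.30, adjusted p = 0.00162, limma). Ltbp2, a matrix protein of the latent TGF-beta binding protein family, rose to 94.72 ± 2.64 FPKM in co-culture, against 86.16 ± 5.02 FPKM alone (limma adjusted p = 0.04). That call was lost without any library but alone replicate 3 (limma adjusted p of 0.0501 to 0.134) and with the replicate number as a block (0.0618). The list had 0 higher genes under that block and without co-culture replicate 1, co-culture replicate 3 or alone replicate 2. Bgn, encoding the related proteoglycan biglycan, was at 1346 ± 14 FPKM in co-culture and 1265 ± 25.6 FPKM alone (limma adjusted p = 0.111, and 0.0475 without alone replicate 1). Thbs1, encoding thrombospondin, an activator of latent TGF-beta, was at 202.8 ± 12 FPKM in co-culture and 192.0 ± 7.86 FPKM alone (limma adjusted p = 0.244). Without alone replicate 1, 3 genes of the list were lower in place of 1.

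Among SMAD mediators and regulators 4 of 17 tested genes fell and 0 rose (19 had a value), where 17.9% of all tested genes were lower and 13.9% higher, so the lower count is near that of all genes. At an unadjusted p below 0.05 from limma, 5 were lower and 1 was higher, and with limma-voom on recovered reads 1 rose. Smurf1, a ubiquitin ligase that targets SMADs and the type I receptor for degradation, fell to 7.986 ± 0.278 FPKM in co-culture, against 9.96 ± 0.684 FPKM alone (SD, n = 3 each; log2 change −0.29, adjusted p = 0.00312, limma). Tgif1, a nuclear corepressor of SMAD2 and SMAD3, fell to 10.21 ± 0.782 FPKM in co-culture, against 12.43 ± 0.272 FPKM alone (limma adjusted p = 0.00432). Smurf2, the related ligase, fell to 14.06 ± 0.606 FPKM in co-culture, against 15.72 ± 0.139 FPKM alone (limma adjusted p = 0.0217), and the SMAD phosphatase gene Ppm1a fell to 8.761 ± 0.0857 FPKM in co-culture, against 9.78 ± 0.256 FPKM alone (adjusted p = 0.0284). Smurf2 was not called without co-culture replicate 1 (0.0914), alone replicate 2 (0.0524) or alone replicate 3 (0.0632). Ppm1a kept its call without alone replicate 2, and lost it without any of the other libraries (0.0567 to 0.0782) and with the replicate number as a block (0.0518). The 4 lower genes numbered 2 without co-culture replicate 1 or alone replicate 3. The coactivator gene Ep300 was at 19.3 ± 0.136 FPKM in co-culture and 20.16 ± 2.31 FPKM alone (limma adjusted p = 0.58, and 0.0167 lower without alone replicate 1), and the corepressor gene Ski at 14.1 ± 0.229 FPKM in co-culture and 13.15 ± 0.99 FPKM alone (adjusted p = 0.193).

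Of 24 tested TGF-beta target genes, among 32 with a value, 7 rose, 8 fell and 9 were not called, with a median log2 change of 0.032. Over all tested genes 13.9% were higher and 17.9% lower. Snai1, a transcription factor of mesenchymal transition, fell and was at 22.11, 19.81 and 21.97 FPKM in co-culture replicates 1 to 3, against 52.6, 53.54 and 51.72 FPKM in alone replicates 1 to 3 (2.47-fold lower, log2 change −1.27, SE 0.0453, adjusted p = 4.89e-08, limma). Every co-culture library had less than every alone library by a wide margin. Il11, a cytokine that TGF-beta induces in fibroblasts, fell to 1.904 ± 0.116 FPKM in co-culture, against 5.114 ± 0.437 FPKM alone (SD, n = 3 each; 2.69-fold lower, limma adjusted p = 2.39e-06). Junb, an AP-1 subunit gene, fell to 62.25 ± 6.73 FPKM in co-culture, against 142.8 ± 3.93 FPKM alone.

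In the opposite direction, Acta2, smooth muscle actin, a marker of contractile fibroblasts, rose to 283.3 ± 6.03 FPKM in co-culture, against 185.5 ± 9.35 FPKM alone (SD, n = 3 each; log2 change 0.61, adjusted p = 4.37e-06, limma). The actin-binding gene Tagln, chosen after its values were seen, rose to 6.05 FPKM in co-culture, against 3.717 FPKM alone (limma adjusted p = 0.00044). Matrix genes of this list went both ways, as 2 chosen after their values were seen show. Lox rose to 581.0 ± 4.41 FPKM in co-culture, against 505.2 ± 15.6 FPKM alone (limma adjusted p = 0.0024). Col3a1 fell to 505.7 ± 8.7 FPKM in co-culture, against 566.0 ± 8.56 FPKM alone (limma adjusted p = 0.00601). The 2 matrix genes of the list with the highest levels were not called. Fn1, fibronectin, was at 1207 ± 29.8 FPKM in co-culture and 1327 ± 90.6 FPKM alone (limma adjusted p = 0.0765, and 0.00246 without alone replicate 1). Col1a2 was at 823.4 ± 11.5 FPKM in co-culture and 773.8 ± 7.5 FPKM alone (limma adjusted p = 0.0824, and 0.041 without alone replicate 1). Many of these target genes also answer to other signals, and what moved them was not tested.

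**Figure D5:**
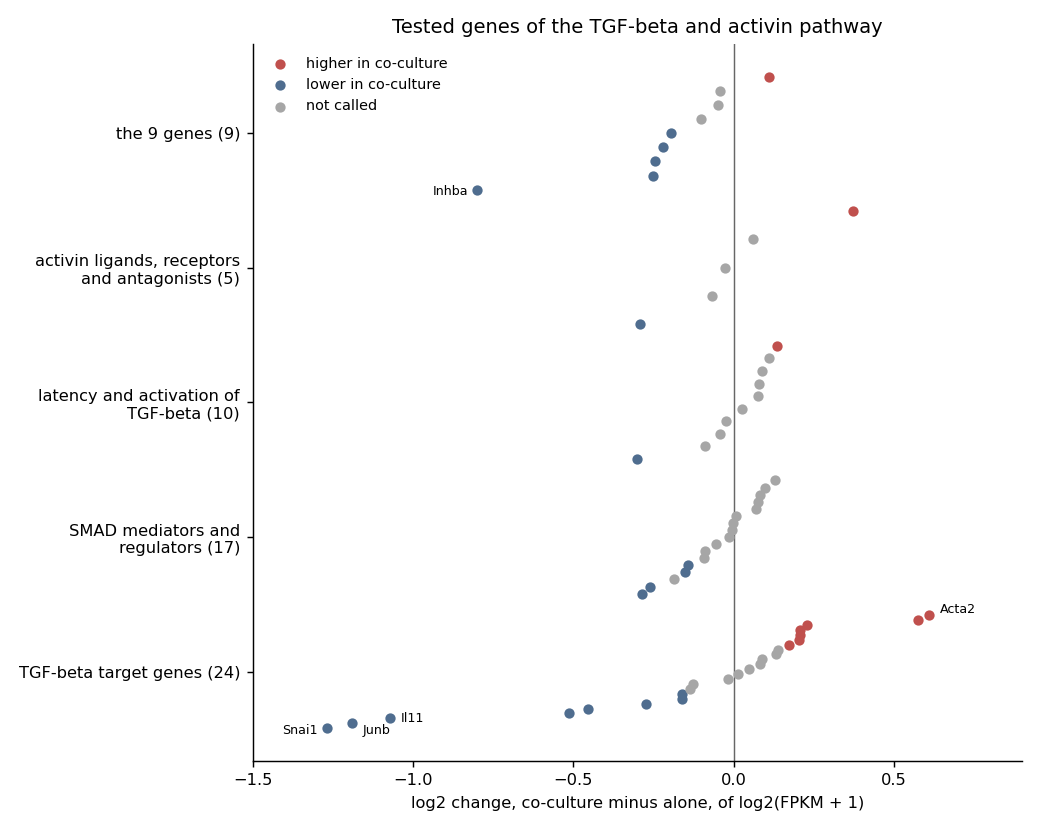
Log2 change (co-culture minus alone, log2(FPKM + 1) scale) of each tested gene of the 9 and of 4 lists of the pathway, with the number tested in parentheses and, among those beyond 0.45 in size, the genes chosen by the naming rule labelled. Target genes spread in both directions, from −1.27 (Snai1) to 0.61 (Acta2).

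The deposited table also annotates genes with the KEGG term for TGF-beta signalling, which holds 8 of the 9 genes. Apart from them, 54 of its genes were tested, of which 6 rose and 15 fell, with a median log2 change of −0.049. Genes of the lists described above were not taken out and may be among these 54. Over all tested genes the corresponding shares were the 13.9% higher and 17.9% lower given above.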

How the data were processed

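RNA of 3 co-culture and 3 alone libraries of 3T3-L1 cells was extracted with TRIzol and made into libraries with a VAHTS Universal V6 kit, per the labels' protocols. Tools listed in the submitters' processing notes are HTSeq, HISAT2 and fastp, with mm10 as the mouse build. Not given in the sources used here: tool versions, annotation, strand use and the handling of any human reads. The authors deposited FPKM values per gene. All 21436 genes' FPKM were whole multiples of 1 read within a tolerance of 0.0001 reads, which gave reads, gene lengths (the smallest that fits each gene) and library totals.

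Co-culture was compared with alone by limma 3.58.1 with a mean-variance trend (R 4.3.3) on log2(FPKM + 1), which understates changes of low genes. The test covered genes averaging 1 FPKM or more, with Benjamini-Hochberg adjustment over all of them and a threshold of 0.05. Adjusted p-values throughout come from this fit unless another is named. The script was tested on simulated data. Alternatives were pseudocounts of 0.1 and 0.01, no filter, a mean of at least 5 FPKM, median-ratio and TPM scaling, no trend, the replicate number as a block, a threshold of 0.01, limma-voom on the recovered reads, and leaving out each library.

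The 9 genes and the gene lists were chosen with earlier results of these data known. From each list the text names up to 4 called genes by smallest p and the 2 other genes with the highest mean, and for each called gene of the 9 the 2 genes nearest in profile. Some genes of the lists are not reported by name here. Coordinates and upstream sequences are from RefSeq on GRCm38.p6. Genes overlapping on either strand may share reads, and not every overlapping gene is named here.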

Additional observations from a re-analysis of the deposited data

How the results depend on the processing

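No call on a gene turned direction under the alternatives run, while the median change over all tested genes, −0.0037, was 0.0028 with no filter. Of the 9 genes, Inhba and Tgfbr1 kept their calls under every alternative that tested them. The single higher call, Tgfbr2, was lost (0 higher) at a threshold of 0.01 (log2 change 0.111), with no filter (0.111), median-ratio scaling (0.103), TPM scaling (0.105), no trend (0.111) and the replicate block (0.111), and gave 0 to 1 higher genes and 0.093 to 0.137 when libraries were left out in turn. The 5 lower calls became 3 at 0.01 (without Tgfb2 at −0.22 and Smad7 at −0.247), 3 with no filter (without Tgfb1 at −0.253 and Smad7 at −0.247) and 3 at a mean of at least 5 FPKM, where Inhba and Smad7 were not tested. Smad7 ranged from −0.299 to −0.197 with libraries left out. Over all genes, 635 were higher and 1073 lower at 0.01, and leaving out libraries gave 925 to 1419 higher (925 without co-culture replicate 3) and 1374 to 1753 lower. In the activin list 0 were higher at a mean of at least 5 FPKM, and 1 to 2 lower with libraries left out. In the latency list 0 were higher at 0.01, with no filter, median-ratio or TPM scaling, no trend and the replicate block, 2 with limma-voom, and 0 to 1 with libraries left out, while 2 were lower with no filter and 1 to 3 with libraries left out. Among SMAD regulators 1 was higher with limma-voom, 2 were lower at 0.01, and 2 to 5 were lower with libraries left out. Of the target genes 4 were higher at 0.01. The cause of these differences was not tested. Whether the replicate numbers pair the libraries cannot be settled by correlating deviations within groups of 3. Deviations of same-numbered libraries correlated at −0.0444, 0.109 and −0.0829, and not every library correlated best with its own number. With the replicate block 1258 genes were higher and 1640 lower, and of the 9 genes' calls only that of Tgfbr2 changed (adjusted p = 0.0732, limma). Of the 9 genes Smad7 had the fewest reads, 582 in co-culture and 827 alone.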
